A study of Mus musculus with 6 samples.

Results

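The genes described here are 35 immediate early and NF-kappa-B response genes, taken by symbol, with earlier results of these data known. They are AP-1 subunits, other early transcription factors, IER proteins, feedback and stress proteins, NF-kappa-B subunits, and NF-kappa-B inhibitors and targets. Of 45037 probe sets on the array, 66 carried 1 of these symbols as their single gene symbol and covered 34 of the 35 genes. Nfkb1 was not analysed here. A probe set was tested if 3 or more arrays read above log2 4. This left 56 of the 66 probe sets and 33 genes, of 19613 probe sets and 9460 genes in the whole series. Of the 10 untested probe sets, 8 read under log2 4 on every array, and those of Klf6 and Rel passed it on 2 arrays and 1 array.

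The cells were hematopoietic stem cells from bone marrow of male C57Bl/6 (CD45.1) mice aged 10 weeks, sorted as Sca-1+ c-Kit+ Lineage- cells. All 6 samples share that strain, sex, age and sort, and none carries a transgene or was given a treatment that the labels name. The 2 groups differ in their place in the side population, the tail of cells that pump out a DNA-binding dye. Lower-SP and Upper-SP each have 3 biological replicates, which came from 3 pools of mice sorted on separate days, so that 1 array stands for a pool and not for a mouse. RNA was amplified with 2 rounds of in vitro transcription before hybridization. All values are log2 expression, and each difference is the Lower-SP mean less the Upper-SP mean. A mean carries its SD over the 3 arrays of a group, and a difference its SE. An adjusted p comes from limma and is adjusted over all tested probe sets, with calls made under 0.05. With 3 arrays per group, the number of arrays limits the precision.

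Immediate early genes are transcribed within minutes of a stimulus, from factors that already sit in the cell, and need no new protein. Many of their products are transcription factors, such as the AP-1 dimers of FOS and JUN proteins, and others shut the response down again. NF-kappa-B is a family of dimers held in the cytoplasm by IkappaB proteins, which are degraded on stimulation and then made anew because their genes are NF-kappa-B targets. In stem cells both systems respond to cytokines and inflammation.

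Stem and progenitor transcripts were present: 14 of 14 annotated markers, among them Kit and Procr, read above log2 4 on at least 1 array. Of these, Kit (-0.92), Abcg2 (-1.05), Cd34 (-1.41), Flt3 (-2.22) and Hoxa9 (-0.48) were called lower in Lower-SP. By limma 0 were called higher, and 6 of 14 had an unadjusted p under 0.05. The shares over all tested genes were 7.05% higher and 20.7% lower. Of 16 annotated neutrophil markers, 4 of 9 tested were called higher (S100a8, S100a9, Lcn2 and Chil3) and 2 lower (Prtn3 and Csf3r) in Lower-SP. Lcn2 and Chil3 read above log2 4 on the 3 Lower-SP arrays only, so they were tested only through the group where they are high. The 16 averaged 4.87 to 7.10 on the Lower-SP arrays and 4.19 to 4.86 in Upper-SP, and Elane, Ctsg, Cxcr2 and Fcnb stayed under log2 4 on every array. S100a8 read 13.2, 12.6 and 9.16 on Lower-SP replicates 1 to 3 and 7.62, 7.87 and 6.95 on Upper-SP replicates 1 to 3. Lower-SP replicates 1 and 2 stood apart for this marker. The sort took Lineage- cells, a gate meant to remove mature neutrophils. Among markers of other cell types, Csf1r (1.06), Gp1bb (1.66) and Itgb3 (1.41) were called higher, and Igha (-4.42), Nkg7 (-1.14) and Postn (-2.16) lower. Gp1bb likewise read above log2 4 on the Lower-SP arrays only. In bulk samples, fewer cells of a type and less RNA per cell cannot be told apart.

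The response genes did not move as a block. Of the 56 tested probe sets, 8 were higher and 9 lower in Lower-SP (14.3% and 16.1%), where 10.7% of all tested probe sets were called higher and 17.5% lower. Read through the brightest tested probe set of each gene, 5 of 33 genes were higher and 6 lower (15.2% and 18.2%), against 7.05% and 20.7% of all tested genes. The median difference of the 33 genes was -0.02, and that of all tested genes was -0.24. Another scaling, cyclic loess, moved these medians to 0.17 and -0.12. It called 10 member probe sets higher and 8 lower, beside 2585 and 2430 of all, and 7 member genes higher and 6 lower, beside 923 and 1372 of all genes. In 6 genes all 3 Lower-SP values lay above all 3 Upper-SP values, and in 8 all lay below (18.2% and 24.2%, against 13.4% and 32.3% of all tested genes).

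The raised genes were Nfkbiz, Gadd45g, Atf3, Nr4a2 and Klf4, and a dimmer probe set of Gadd45b also rose. The lowered genes were Fosl2, Ier5, Junb, Ddit3, Ier2 and Rela, and 1 probe set each of Socs3 and Trib3 also fell. Without Upper-SP replicate 1 the calls dropped from 8 higher and 9 lower to 2 and 4. Without Lower-SP replicate 1 they were 4 and 8, and without Lower-SP replicate 3 they were 9 and 12. Over all tested probe sets, 2090 were called higher and 3430 lower. In these settings, in order, those counts were 885 and 781, 1441 and 2253, and 2455 and 3942. Lower-SP replicate 3 correlated with Lower-SP replicates 1 and 2 at 0.9516 and 0.9552, and those 2 arrays with each other at 0.9825.

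**Figure D1:**
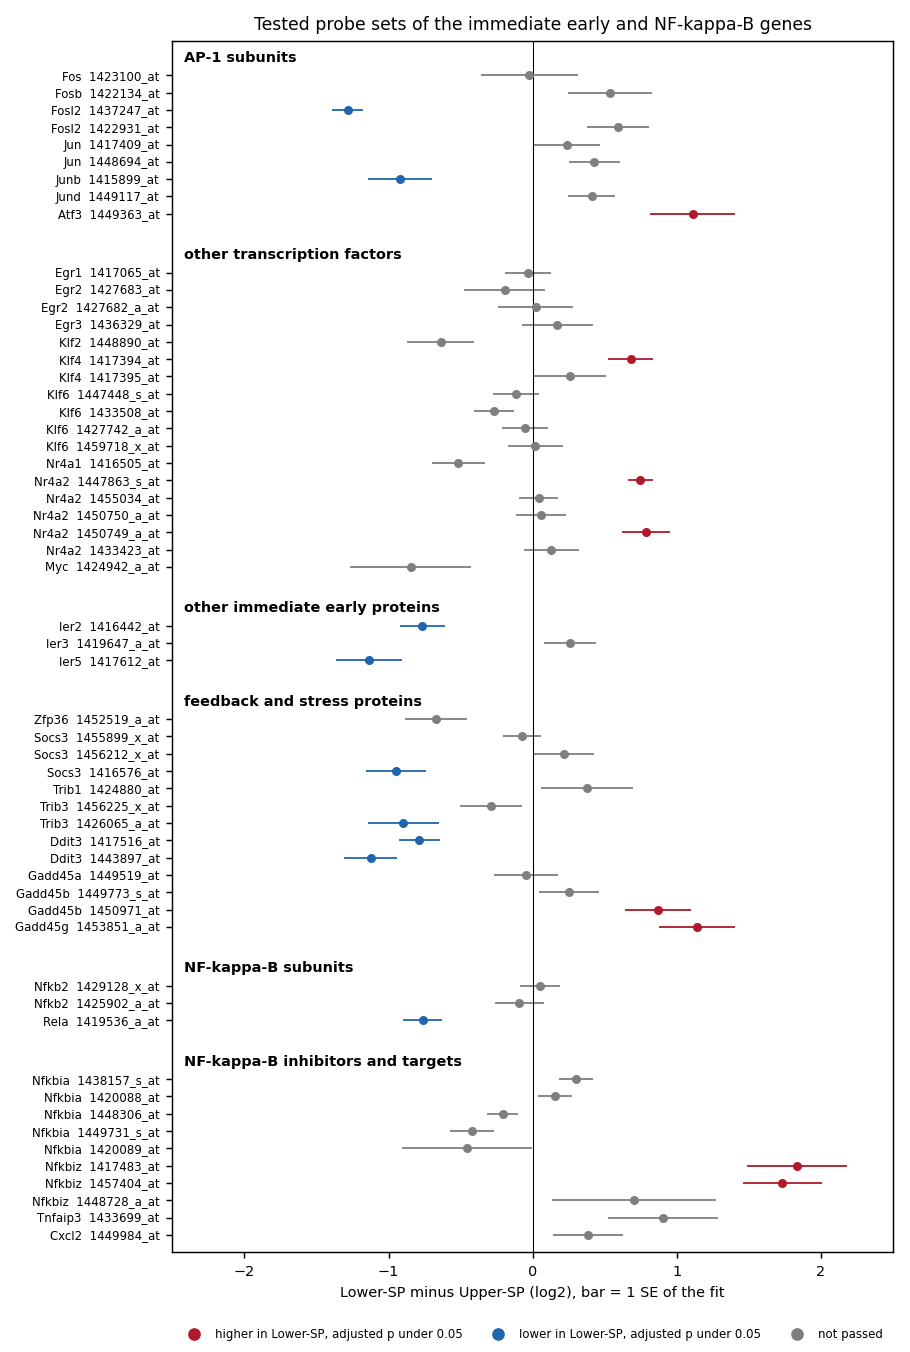
Difference between Lower-SP and Upper-SP (log2, horizontal axis) for each of the 56 tested probe sets, grouped by role, with bars of 1 SE of the limma fit. Red points are the 8 probe sets called higher, blue points the 9 called lower and grey points the 39 that did not pass; both colours occur among the AP-1 subunits and among the feedback and stress proteins.

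Promoter windows carry the elements through which these pathways are known to act, and 28 of the 35 genes had one in the RefSeq table (GRCm38.p6), 35 windows in all. A window here is the 250 bases before an annotated start site. Both strands were searched for the letters of each element, and matches may overlap. Those of 4 genes are given 5′ to 3′ with matches in capitals, except those of the common CCAAT box. Nfkbia was taken as the textbook feedback target and Fosl2 as the member with the lowest adjusted p. Gadd45b was taken as a member with 1 raised probe set, and Zfp36 as a member with a CArG box beside an EGR site.
Nfkbia (chr12:55492648-55492897, minus strand): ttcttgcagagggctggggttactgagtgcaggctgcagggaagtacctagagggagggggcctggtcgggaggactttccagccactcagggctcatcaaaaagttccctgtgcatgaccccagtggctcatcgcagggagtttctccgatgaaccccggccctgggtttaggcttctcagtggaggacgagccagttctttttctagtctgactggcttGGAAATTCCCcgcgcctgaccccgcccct
Fosl2 (chr5:32136222-32136471, plus strand): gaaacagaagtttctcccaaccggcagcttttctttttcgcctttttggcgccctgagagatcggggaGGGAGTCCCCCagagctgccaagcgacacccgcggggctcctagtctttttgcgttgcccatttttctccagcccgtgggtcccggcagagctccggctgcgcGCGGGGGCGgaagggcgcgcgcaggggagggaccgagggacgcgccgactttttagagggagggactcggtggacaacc
Gadd45b (chr10:80929841-80930090, plus strand): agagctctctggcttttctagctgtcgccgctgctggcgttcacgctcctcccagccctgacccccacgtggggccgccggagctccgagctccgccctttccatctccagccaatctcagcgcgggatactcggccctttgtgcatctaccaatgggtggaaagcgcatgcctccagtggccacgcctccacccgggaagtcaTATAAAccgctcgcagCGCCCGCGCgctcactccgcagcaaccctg
Zfp36 (chr7:28379229-28379478, minus strand): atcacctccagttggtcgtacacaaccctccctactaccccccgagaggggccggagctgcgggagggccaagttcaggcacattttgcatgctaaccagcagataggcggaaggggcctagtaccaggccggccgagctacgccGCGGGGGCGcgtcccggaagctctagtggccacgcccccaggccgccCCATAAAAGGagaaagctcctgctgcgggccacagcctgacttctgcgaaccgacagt
In the Nfkbia window the capitals mark a kappa-B site that begins 29 bases before the start. In the Fosl2 window they mark overlapping kappa-B sites, 182 and 181 bases before the start, and an EGR site (GCGNGGGCG) at 79. In the Gadd45b window they mark a TATA box at 46 and an EGR site at 30, read on the other strand; its CCAAT matches, at 139 and 100, are in lower case. In the Zfp36 window they mark an EGR site at 105 and a CArG box, the element bound by serum response factor, at 58.

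Letters of a kappa-B site were found in 34.3% of the 35 windows and in 7.25% of all 32851 windows. An EGR site was found in 28.6% against 4.70%, and a CArG box in 14.3% (5 windows, of which 4 belong to Egr2) against 1.47%. The 12 kappa-B windows belong to Nfkbia, Nfkb2, Rel, Tnfaip3, Cxcl2, Ier3, Egr2, Fos, Fosb and Fosl2, and several of them are of Nfkb2. The AP-1 site TGANTCA was found in 8.57% against 6.75%, the TATA box TATAAA in 17.1% against 12.4%, CCAAT in 37.1% against 33.8%, and the cAMP response element TGACGTCA in 0 windows against 1.55%. Some members called in each direction hold an EGR site: Fosl2 and Socs3, with a probe set called lower, and Klf4, Nr4a2 and Gadd45b, with a probe set called higher. The windows of Atf3, Gadd45g, Ddit3, Junb, Ier5, Rela and Trib3, which also had a called probe set, hold none. Fosb, Klf2, Nfkb2, Nr4a1 and Zfp36, with no called probe set, hold an EGR site too. A match is a description of letters, not a bound site.

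AP-1 subunits went different ways. Of 9 tested probe sets of 7 genes, 1 was higher and 2 were lower, with a median of 0.41. This count and those of the other roles stand beside 10.7% higher and 17.5% lower of all tested probe sets, with a median of -0.14. Fosl2, the FRA2 subunit, read 10.70, 10.75 and 10.81 in Lower-SP against 11.996, 11.96 and 12.15 in Upper-SP. Its groups were more than 1 log2 unit apart and the replicates lay close together. It fell by 1.28 (SE 0.11, 2.43-fold, adjusted p = 0.0011), a call kept in every setting that tested this probe set. A second, dimmer Fosl2 probe set pointed the other way, with 6.10 ± 0.17 against 5.51 ± 0.10 (difference 0.59, adjusted p = 0.076). With the mean of its 2 tested probe sets, Fosl2 did not pass (-0.35, adjusted p = 0.095).

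Junb, an AP-1 subunit that restrains stem cell division in mice, read 6.99, 6.99 and 6.68 in Lower-SP against 8.06, 7.58 and 7.78 in Upper-SP. The groups did not overlap. Junb fell by 0.92 (SE 0.22, 1.89-fold, adjusted p = 0.020), and the call was lost without Upper-SP replicate 1 (-0.79, adjusted p = 0.099) and narrowly without Lower-SP replicate 2 (-0.97, adjusted p = 0.050, just over the threshold). It was also lost without Lower-SP replicates 1 and 2 together (-1.12, adjusted p = 0.061).

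Atf3, a stress-induced bZIP repressor, read 7.75, 7.24 and 7.999 in Lower-SP against 6.53, 6.96 and 6.17 in Upper-SP. Its lowest Lower-SP value lay 0.28 above its highest Upper-SP value. It rose by 1.11 (SE 0.29, 2.16-fold, adjusted p = 0.028). The call was lost without Lower-SP replicate 1 (adjusted p = 0.077), without Upper-SP replicate 1 (0.103) or 3 (0.064), without Lower-SP replicates 1 and 2 together (0.061), with no filter (0.082) and with the replicate number as a block (0.074). The difference stayed between 0.92 and 1.45 throughout.

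The remaining AP-1 subunits did not pass. Fos, the founding immediate early gene, read 12.02, 11.63 and 10.61 in Lower-SP against 11.49, 11.70 and 11.13 in Upper-SP, so its groups overlapped almost completely (difference -0.02, SE 0.34, adjusted p = 0.97). Lower-SP replicate 3 was its lowest array. Fosb read 7.35, 6.97 and 7.47 against 6.82, 6.21 and 7.14 (difference 0.54, adjusted p = 0.20). The 2 probe sets of Jun, the partner of FOS, gave 0.24 and 0.43 (adjusted p = 0.47 and 0.11), and at the second the Lower-SP values of 8.09, 8.39 and 8.25 all lay above the Upper-SP values of 7.83, 7.72 and 7.89.

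Jund, a JUN protein that is made more steadily than the others, read 12.4, 12.7 and 12.4 in Lower-SP against 12.1, 11.8 and 12.4 in Upper-SP (difference 0.41, adjusted p = 0.096). Lower-SP replicate 1 and Upper-SP replicate 3 read nearly the same. Jund passed without Upper-SP replicate 3 (0.56, adjusted p = 0.033), with quantile normalization (0.048) and with cyclic loess (0.043). Its second probe set was under log2 4 on every array.

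Among the other transcription factors, 3 of 18 tested probe sets were higher and 0 lower by limma (3 higher and 2 lower at an unadjusted p under 0.05), with a median of 0.02. The zinc-finger factors of the EGR family, direct targets of the growth factor cascade, did not pass. Egr1 read 9.93, 9.85 and 10.30 in Lower-SP against 10.12, 9.95 and 10.12 in Upper-SP. The groups overlapped (difference -0.03, SE 0.16, adjusted p = 0.90). Egr2 differed by -0.19 and 0.02 at its 2 tested probe sets and Egr3 by 0.17.

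Nr4a2, an orphan nuclear receptor of the NURR group, rose at its brightest probe set by 0.75 (SE 0.09, 1.68-fold, adjusted p = 0.0026). There it stood at 13.90, 14.02 and 14.14 in Lower-SP and at 13.28, 13.27 and 13.27 in Upper-SP. The Upper-SP arrays ranged over 0.011, and the gap between the groups was 0.62. Another probe set, at 9.11, 9.23 and 9.50 against 8.45, 8.51 and 8.52, rose by 0.79 (SE 0.17, adjusted p = 0.013), a call lost without Upper-SP replicate 1 (0.76, adjusted p = 0.068).

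The other 3 tested Nr4a2 probe sets did not pass, with differences of 0.04, 0.06 and 0.13. The mean of all 5 tested Nr4a2 probe sets did not pass either (0.35, adjusted p = 0.065). The related receptor Nr4a1 read 11.1, 10.8 and 11.5 in Lower-SP against 11.8, 11.7 and 11.4 in Upper-SP. Its groups overlapped through replicate 3 of each (difference -0.52, adjusted p = 0.072), and it passed as lower without Lower-SP replicate 3 (-0.69, adjusted p = 0.019). The call for Nr4a2 at its brightest probe set was kept with every other setting that tested it and without each array.

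Klf4, a factor that restrains proliferation, read 10.65, 10.44 and 10.69 in Lower-SP against 9.67, 10.02 and 10.05 in Upper-SP. The groups did not overlap, and Klf4 rose by 0.68 (SE 0.16, 1.60-fold, adjusted p = 0.018). It did not pass without Lower-SP replicate 1 (0.65, adjusted p = 0.054), without Upper-SP replicate 1 (0.56, 0.077), without Lower-SP replicates 1 and 2 together (0.78, 0.079) or with no filter (0.054). A dimmer Klf4 probe set differed by 0.26 and the mean of both by 0.47 (adjusted p = 0.46 and 0.066).

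Klf2, a quiescence factor of lymphocytes and endothelium, lay lower near the level for testing, with 4.80, 4.58 and 4.59 against 5.29, 5.01 and 5.58. Its groups did not overlap, but the difference of -0.64 did not pass (adjusted p = 0.074). The 4 tested probe sets of Klf6, an early-induced tumour suppressor, differed by -0.27 to 0.02. Myc, which drives growth and division, read 5.80, 5.57 and 4.22 in Lower-SP against 6.05, 5.76 and 6.32 in Upper-SP. The low value of Lower-SP replicate 3 set most of its difference (-0.85, SE 0.42, adjusted p = 0.17), which was -0.36 without that array and -1.82 when it was the only Lower-SP array (adjusted p = 0.031).

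Of the 3 IER genes, short-lived early products, 2 were lower. Ier2 read 11.5, 11.4 and 11.9 in Lower-SP against 12.5, 12.4 and 12.1 in Upper-SP. The groups did not overlap, and Lower-SP replicate 3 and Upper-SP replicate 3 lay nearest to each other. Ier2 fell by 0.77 (SE 0.16, 1.70-fold, adjusted p = 0.012). The call was lost without Upper-SP replicate 1 (-0.70, adjusted p = 0.064) and without Lower-SP replicates 1 and 2 together (-0.48, 0.135).

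Ier5, a cofactor of the heat shock factor, read 9.88, 9.64 and 9.996 in Lower-SP against 11.04, 11.39 and 10.50 in Upper-SP. The Upper-SP arrays spread more widely than the Lower-SP arrays (SD 0.45 against 0.18) but stayed above them. Ier5 fell by 1.14 (SE 0.23, 2.20-fold, adjusted p = 0.012), a call lost without Upper-SP replicate 1 (-1.10, adjusted p = 0.061) and without Lower-SP replicates 1 and 2 together (-0.98, 0.123). Its other 2 probe sets were under log2 4 on every array. Ier3, an apoptosis modifier, read 8.90 ± 0.08 against 8.64 ± 0.25 (difference 0.26, adjusted p = 0.31).

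Feedback and stress genes were split as well, with 2 of 13 tested probe sets higher and 4 lower (median -0.07). Ddit3, the CHOP factor of the unfolded protein and integrated stress responses, was lower at both of its probe sets. The brighter one read 10.3, 10.2 and 10.5 in Lower-SP against 11.3, 11.1 and 11.0 in Upper-SP, and it fell by 0.79 (SE 0.14, 1.72-fold, adjusted p = 0.0077). The other read 8.25, 7.94 and 7.80 against 9.22, 9.05 and 9.09 and fell by 1.13 (SE 0.18, 2.18-fold, adjusted p = 0.0058). Both pairs of groups were clear of each other, by 0.49 and 0.81, and both calls were kept without each single array. Without Lower-SP replicates 1 and 2 together the brighter one did not pass (-0.62, adjusted p = 0.088).

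Trib3, a pseudokinase induced by CHOP, fell by 0.90 at its dimmer probe set (SE 0.25, adjusted p = 0.032), with 8.31, 8.82 and 8.64 against 9.61, 9.83 and 9.02. The groups were apart by 0.19. The brighter Trib3 probe set, marked as matching several sequences, did not pass (-0.29, adjusted p = 0.34). Nor did the mean of both (-0.59, adjusted p = 0.070). The call at the dimmer one was lost without Lower-SP replicate 1 (-0.76, adjusted p = 0.095) or 2 (-1.01, 0.056), without Upper-SP replicate 1 (-0.83, 0.127) or 2 (-0.72, 0.111), without Lower-SP replicates 1 and 2 together (-0.85, 0.161), with no filter (0.105), with quantile normalization (0.0501) and with cyclic loess (0.064). Trib1, a pseudokinase that directs protein degradation, differed by 0.38 (adjusted p = 0.41).

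Of the 3 Gadd45 genes, which encode small stress sensors that act on the p38 kinase cascade, 2 had a probe set that rose. Gadd45g read 7.59, 7.01 and 6.92 in Lower-SP against 5.97, 5.83 and 6.29 in Upper-SP. All Lower-SP values lay above all Upper-SP values, and Gadd45g rose by 1.14 (SE 0.26, 2.21-fold, adjusted p = 0.018). The call was lost without Lower-SP replicate 1 (0.94, adjusted p = 0.051), without Upper-SP replicate 1 (1.11, 0.082) or 2 (1.05, 0.069), and without Lower-SP replicates 1 and 2 together (0.89, 0.105).

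Gadd45b rose at 1 probe set, with 9.42, 9.41 and 9.79 against 8.69, 8.28 and 9.03 (difference 0.87, SE 0.23, 1.83-fold, adjusted p = 0.027). The mean of its tested probe sets did not pass (0.56, adjusted p = 0.071). Its brighter probe set is marked as matching several sequences. There it read 10.3, 10.5 and 11.0 against 10.4, 10.2 and 10.5, which overlapped (0.25, adjusted p = 0.39). The call at the dimmer one was lost without Lower-SP replicate 1 (0.93, adjusted p = 0.055), 2 (0.93, 0.062) or 3 (0.74, 0.0501). It was also lost without Upper-SP replicate 1 (0.88, 0.094) or 2 (0.67, 0.082) and with no filter (0.087). Without Lower-SP replicates 1 and 2 together the difference was 1.12. Gadd45a, the p53 target of the family, lay near the level for testing at 4.54 ± 0.24 against 4.58 ± 0.18 (-0.04, adjusted p = 0.90).

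Zfp36, the tristetraprolin gene whose product degrades cytokine mRNAs, read 9.78, 9.76 and 10.02 in Lower-SP against 10.61, 10.89 and 10.08 in Upper-SP. The gap between the groups was 0.07. Its difference of -0.67 (SE 0.21) just missed the threshold, at an adjusted p of 0.0503. It passed once Upper-SP replicate 3 (-0.89, adjusted p = 0.012) or Lower-SP replicate 3 (-0.75, 0.047) was left out. It also passed with a filter at log2 6 (0.036), with values under log2 4 set to 4 (0.047) and without probe sets marked as matching several sequences (0.048).

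Socs3, which blocks JAK kinases below cytokine receptors, fell at 1 of its 3 probe sets. There the Lower-SP arrays read 7.29, 6.90 and 7.03 and the Upper-SP arrays 8.18, 8.08 and 7.80, a difference of -0.95 (SE 0.21, 1.93-fold, adjusted p = 0.016). Its 2 brighter probe sets, both marked as matching several sequences, gave -0.07 and 0.22 (adjusted p = 0.71 and 0.48). The groups overlapped at both. The mean of the 3 did not pass (-0.27, adjusted p = 0.17). The call was lost without Lower-SP replicate 2 (-0.86, adjusted p = 0.055), without Upper-SP replicate 1 (-0.87, 0.084) or 2 (-0.92, 0.062), and without Lower-SP replicates 1 and 2 together (-0.99, 0.066).

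**Figure D2:**
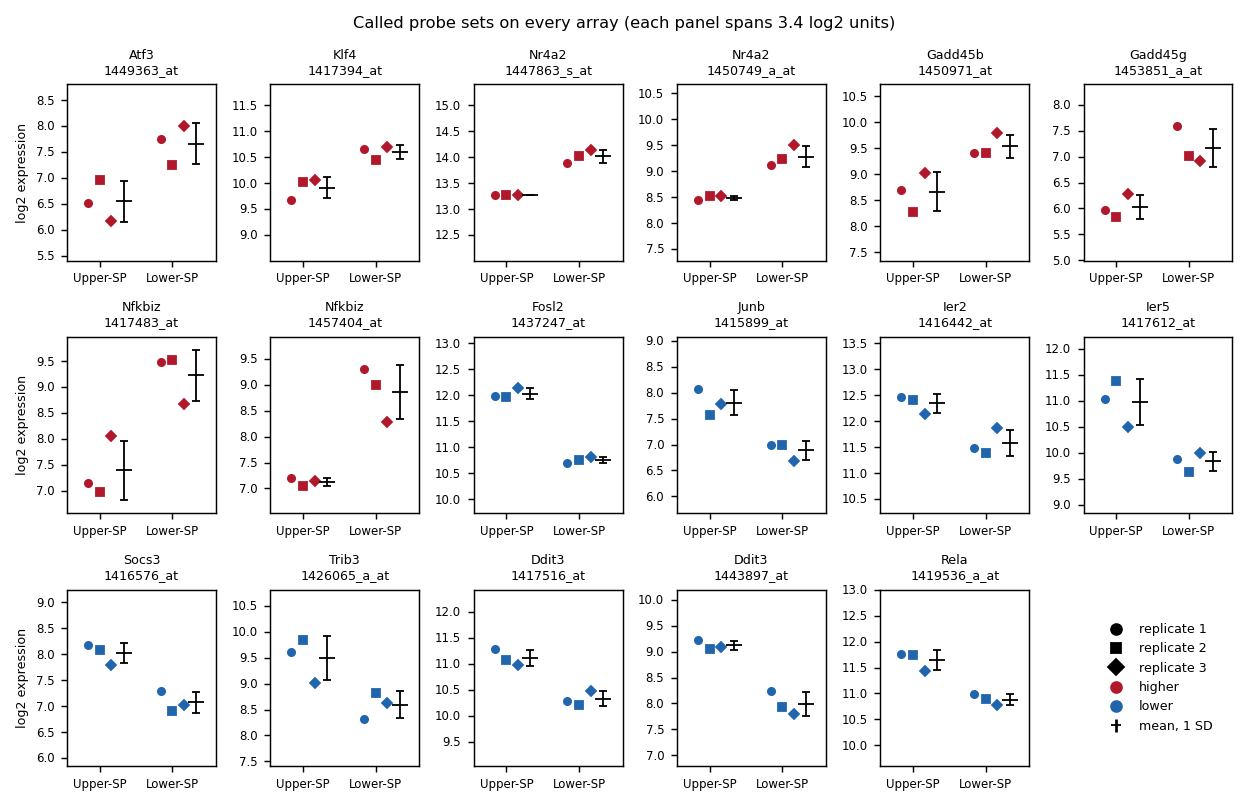
Log2 expression (vertical axis, each panel spanning 3.4 units) on each array for the 17 called probe sets, with symbols for replicates 1 to 3 and the mean ± 1 SD beside them. Red panels are higher and blue panels lower in Lower-SP, and in all 17 the 3 Lower-SP values do not overlap the 3 Upper-SP values.

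Among the NF-kappa-B subunits, 1 of 3 tested probe sets was lower, that of Rela, and both of Nfkb2 did not pass. Rela, the p65 subunit that activates transcription, read 10.98, 10.88 and 10.77 in Lower-SP against 11.77, 11.74 and 11.43 in Upper-SP. The groups were 0.44 apart, which exceeds the range within either group. Rela fell by 0.76 (SE 0.14, 1.70-fold, adjusted p = 0.0075), a call kept with all 19 other settings, where the difference ranged from -0.87 to -0.57. Nfkb2, the p100 precursor of the noncanonical branch, read 10.4, 10.4 and 10.7 against 10.6, 10.5 and 10.4 at its brightest probe set (0.05, adjusted p = 0.80) and differed by -0.09 at the other. Rel, the c-Rel subunit of lymphoid cells, was not tested, since it read 3.64, 4.33 and 3.08 in Lower-SP against 3.03, 3.03 and 3.09 in Upper-SP.

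Nfkbiz, which encodes the nuclear IkappaB-zeta that switches on secondary NF-kappa-B targets, changed most of all members. Among the 10 tested probe sets of NF-kappa-B inhibitors and targets, 2 of Nfkbiz were higher and 0 were lower by limma (4 higher and 1 lower at an unadjusted p under 0.05), with a median of 0.34. At its brightest probe set the Lower-SP arrays read 9.49, 9.52 and 8.66 and the Upper-SP arrays 7.15, 6.97 and 8.05. It rose by 1.84 there (SE 0.35, 3.57-fold, adjusted p = 0.0094). A second probe set read 9.30, 9.003 and 8.29 against 7.21, 7.05 and 7.14 and rose by 1.73 (SE 0.27, 3.33-fold, adjusted p = 0.0055). The third, at 7.36, 7.14 and 5.30 against 6.55, 5.34 and 5.81, overlapped between groups and did not pass (0.70, adjusted p = 0.38). It passed without Lower-SP replicate 3 (1.35, adjusted p = 0.028). The mean of the 3 probe sets passed (1.42, adjusted p = 0.022).

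The Nfkbiz signal was highest on Lower-SP replicates 1 and 2, the arrays with the highest neutrophil signal. With both left out, the brightest probe set did not pass (1.27, adjusted p = 0.125), while the second did (1.16, adjusted p = 0.041). The third turned to -0.60 (not passed). The brightest was also lost without Upper-SP replicate 1 (1.71, adjusted p = 0.053). Among the Upper-SP arrays the brightest Nfkbiz probe set was highest on replicate 3 and the others on replicate 1, while S100a8 was highest on replicate 2 and lowest on replicate 3.

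Tnfaip3, the A20 enzyme that ends NF-kappa-B signaling, read 7.47, 7.38 and 6.40 against 6.47, 6.495 and 5.58 and so was also highest on Lower-SP replicates 1 and 2. Lower-SP replicate 3 lay within the Upper-SP range, and the difference of 0.90 did not pass (SE 0.38, adjusted p = 0.11). It passed without Lower-SP replicate 3 (1.25, adjusted p = 0.025) and with the replicate number as a block (adjusted p = 0.044), and it was 0.22 without Lower-SP replicates 1 and 2. Cxcl2, a neutrophil-attracting chemokine, read 5.33, 5.27 and 5.74 against 4.998, 4.87 and 5.32 (0.39, adjusted p = 0.26), and its groups overlapped. The part of neutrophil RNA in the values of Nfkbiz and Tnfaip3 was not tested further.

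Nfkbia, the gene of IkappaB-alpha whose promoter is printed with the other windows, did not pass at any of its 5 tested probe sets. The brightest read 15.07, 14.71 and 14.79 in Lower-SP against 14.42, 14.54 and 14.70 in Upper-SP (0.30, adjusted p = 0.089). It was called higher with quantile normalization (0.43, adjusted p = 0.037) and cyclic loess (0.49, 0.027). The next gave 13.5, 13.7 and 13.8 against 13.4, 13.4 and 13.7 (0.16). The others pointed down, by -0.21, -0.42 and -0.46, and the mean of all 5 was -0.13 (adjusted p = 0.51). The probe set at -0.42 passed without Lower-SP replicate 3 (-0.54, adjusted p = 0.026).

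**Figure D3:**
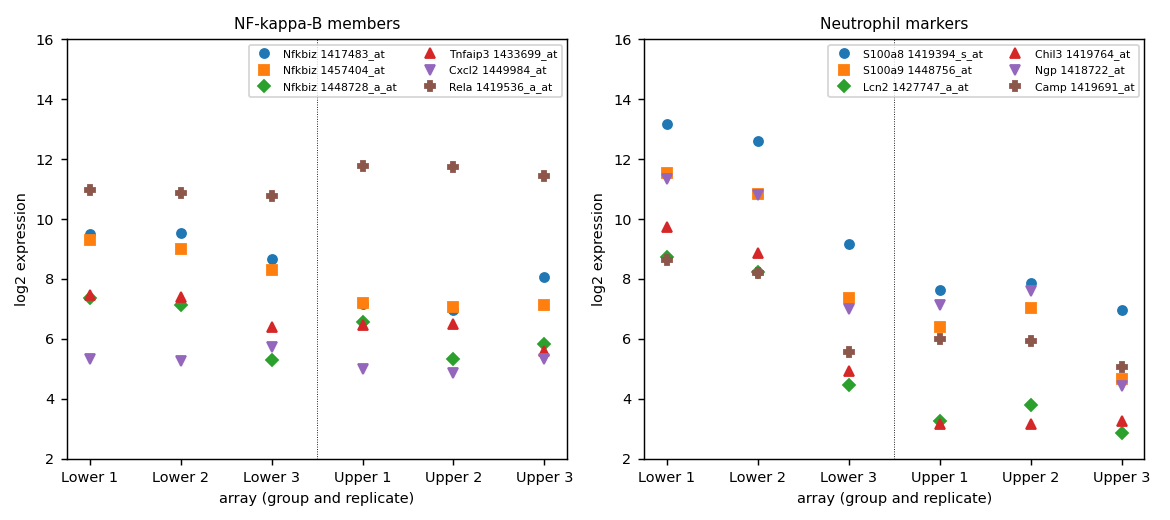
Log2 expression (vertical axis) on each of the 6 arrays (horizontal axis) for NF-kappa-B members (left) and neutrophil markers (right), 1 symbol per probe set. Rela is lower on all 3 Lower-SP arrays, 2 Nfkbiz probe sets are higher on all 3, and the 6 neutrophil markers drawn are highest on Lower-SP replicates 1 and 2; Prtn3 and Csf3r, which are lower in Lower-SP, are not drawn.

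Several genes had probe sets that differed among themselves. Of 13 members with at least 2 tested probe sets, 6 had differences of both signs and 7 had a called beside a not passed probe set. By limma, 0 had probe sets called in opposite directions. The same counts were not made over all genes, so whether they are particular to the members was not tested. Counts by the kind of sequence a probe set was annotated to are given because they differ over the whole array. Of 19 tested member probe sets on RefSeq mRNAs, 1 rose and 5 fell, and of the other 37, 7 rose and 4 fell. Over all tested probe sets with a single gene symbol these splits were 97 and 709 of 2687, and 1329 and 2237 of 13367. The part of annotation in the members' directions was not tested.

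Other genes of the same pathways, listed for comparison, were counted from the same fit. The count of each list stands beside 7.05% higher and 20.7% lower of all tested genes, with a median of -0.24. Of 19 tested bZIP partners of AP-1, 2 were higher and 1 lower (median 0.01). Bach1 (1.20), a repressor of heme and antioxidant genes, and Atf2 (0.89), a stress kinase target, rose, and Nfe2l1 (-0.91), a regulator of proteasome genes, fell. Further probe sets of Bach1 (1.64) and Atf2 (3.06) were also called higher, and 2 others of Atf2 (0.81 and 0.46) did not pass. Of 30 further immediate early genes, 7 were higher and 6 lower (median -0.08). Btg2, an antiproliferative gene, fell by 1.89, and a second probe set fell by 1.47. The kinase gene Sik1 (1.66), the EGF receptor inhibitor Errfi1 (1.54) and the ERK phosphatase Dusp5 (1.35) rose. A second Sik1 probe set, at -0.33, did not pass.

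Of 21 upstream factors and kinases, among them serum response factor and the MAP kinases, 0 were called higher and 0 lower by limma (6 had an unadjusted p under 0.05). Of 34 genes of NF-kappa-B signaling, 5 were higher and 5 lower (median -0.13). Il1r1, the interleukin-1 receptor, read 5.32, 4.60 and 4.28 in Lower-SP against 7.06, 7.02 and 7.27 in Upper-SP. It fell by 2.38 (SE 0.30, adjusted p = 0.0032), and its groups were clear of each other by 1.69. The kinase complex scaffold Ikbkg (-1.64) and the kinase Ikbke (-1.55) also fell, and the adaptor Traf1 rose by 1.65. Other probe sets of Ikbkg (0.22 and -0.84) and Traf1 (-0.67) did not pass.

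Of 18 tested NF-kappa-B targets outside the members, 2 were higher and 3 lower (median -0.09). The prostaglandin synthase Ptgs2 read 6.25, 5.09 and 6.70 against 3.34, 4.22 and 4.53 and rose by 1.99 (SE 0.47, adjusted p = 0.019). The endocytic gene Ehd1 rose by 1.02 (2 other probe sets, at -0.17 and -1.02, did not pass), and the surface protein gene Cd83 fell by 1.70. The brightest probe set of the autophagy receptor gene Sqstm1 fell by 0.96, while another rose by 2.64.

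Of 23 further stress and feedback genes, 4 were higher and 4 lower (median -0.15). The stress kinase Eif2ak3 (1.60) and the glutathione-degrading enzyme Chac1 (1.51), a target of the integrated stress response, rose. The kinase Eif2ak2 (-1.52), with another probe set called higher (1.10), and the endoplasmic reticulum gene Herpud1 (-0.98) fell. Of these 19 named genes, 7 passed in every setting that tested them: Il1r1, Traf1, Ikbkg, Cd83, Dusp5, Errfi1 and Eif2ak2. Without Upper-SP replicate 1, 9 of the 19 passed, and 14 passed without Upper-SP replicate 2 or without Lower-SP replicate 2. There were 15 passing without Lower-SP replicate 1, 18 when its replicate 3 was left out, and 10 when its replicates 1 and 2 were left out together. With no filter 12 passed, and with the replicate number as a block 17, without Sik1 (adjusted p = 0.073) and Herpud1 (0.058).

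The plot of members across settings shows which calls were kept. Of the 17 called member probe sets, 5 passed in every setting that tested them: those of Fosl2, Rela, Nr4a2 (the brightest), Ddit3 (the dimmer) and Nfkbiz (the second). All 17 kept the sign of their difference in every setting that tested them.

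**Figure D4:**
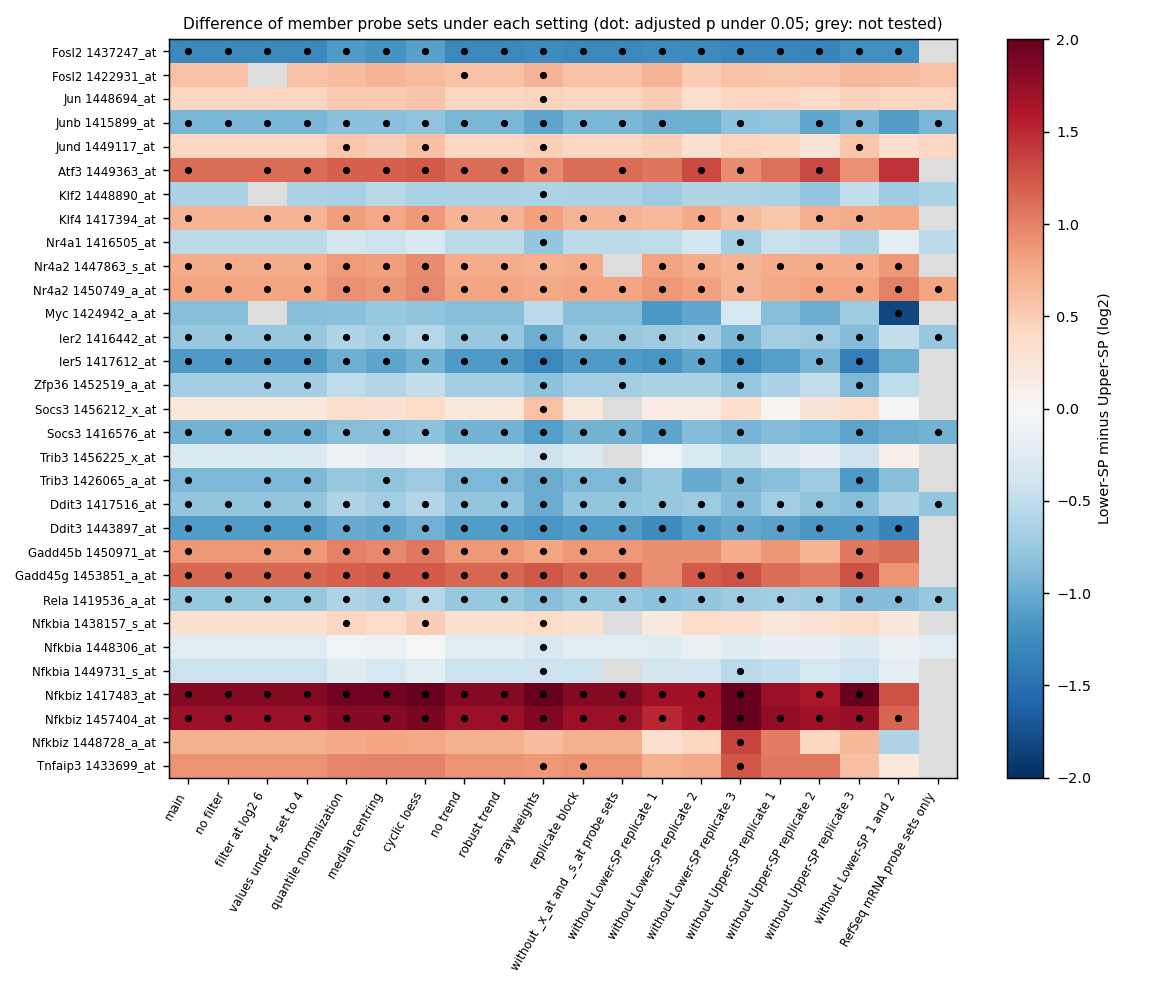
Difference between Lower-SP and Upper-SP (colour, log2) of the 31 member probe sets that passed in at least 1 setting (rows), under each setting (columns); black dots mark an adjusted p under 0.05 and grey cells were not tested. The rows of Rela and of the brighter Fosl2 probe set keep their dots in every tested column, and the column without Upper-SP replicate 1 keeps 6 dots.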

How the data were processed

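Each array is 1 column of the deposited table of log2 expression values per probe set of an Affymetrix mouse array. Per the submitters' processing notes, the authors used GCOS 1.0 and GCRMA, a method that subtracts a sequence-based background and merges the probes of a set; its settings and a genome build are not given in the sources used here. Array medians of the deposited values ran from 3.34 to 3.45, so the arrays were not fully equalized; differences are relative to the other transcripts of a sample.

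Symbols came from the array's annotation table. Of 45037 probe sets left after 64 controls, 34945 had 1 symbol, 932 several and 9160 none. Limma 3.58.1 in R 4.3.3 (lmFit, eBayes with trend, two-sided, 4 residual df) was run on all tested probe sets, and p values were adjusted over all 19613 by Benjamini and Hochberg, with a threshold of 0.05. All members were named or counted; of each comparison list up to 4 passing genes with the largest difference and no overlap between groups were named. The members and lists were chosen with earlier results of these data known. A simulation with 19613 probe sets altered only 200 of them. Its recovery was 18% for differences of log2 1 and 69% for those of log2 2. The real fit called far more probe sets, 2090 higher and 3430 lower, and the adjustment of p depends on that share. The simulated rates therefore cannot be read as the recovery in the real fit. Promoter windows are RefSeq's. Alternatives covered filter, scaling, variance model, probe set choice, replicate block and left-out arrays.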

Additional observations from a re-analysis of the deposited data

How the results depend on the processing

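All 17 called member probe sets kept their direction in every setting that tested them, and 5 passed in every setting that tested them. Among probe sets, 8 were higher and 9 lower as reported. With no filter, 5 were higher and 8 lower, beside 1252 and 1679 of all 45037. With array weights these counts were 14 and 15, beside 3749 and 6979 of all 19613. With RefSeq mRNA probe sets only they were 1 and 5 of 19 tested, beside 101 and 772 of all 2800. Without probe sets marked as matching several sequences they were 7 and 10 of 46 tested, beside 1897 and 3011 of all 16880. A fit without Lower-SP replicates 1 and 2 assumes that Lower-SP replicate 3 alone varies like the others. Among genes, 5 were higher and 6 lower. With no filter, 3 were higher and 6 lower, beside 386 and 932 of all 18193. With array weights these counts were 8 and 10, beside 1301 and 3967 of all 9460. With RefSeq mRNA probe sets only they were 0 and 5 of 17 tested, beside 88 and 651 of all 2367. There, 2 were higher at an unadjusted p under 0.05 by limma. Without probe sets marked as matching several sequences they were 5 and 9, beside 618 and 2010 of all 9024. Probe sets so marked are the brightest of Socs3, Trib3, Gadd45b, Nr4a2, Nfkbia, Klf6 and Nfkb2. With the mean of a gene's tested probe sets 3 were higher. Leaving out 1 array gave 2 to 9 higher and 4 to 12 lower probe sets, and 1 to 6 higher and 3 to 8 lower genes. The lowest counts came without Upper-SP replicate 1. Over all tested probe sets these ranges were 885 to 2455 and 781 to 3942, and over all tested genes 282 to 776 and 419 to 2304. Of 39 probe sets that did not pass, 18 changed sign in some setting and 14 passed in some, 12 of them with array weights. Deviations of same-numbered arrays correlated at -0.051, -0.029 and -0.023 over tested probe sets. With 3 arrays per group these values cannot decide whether a replicate number marks a shared pool, which the sources used here do not say. With the replicate number as a block, 8 member probe sets were higher and 9 lower, of which 16 were shared with the 17. Over all 19613 probe sets the block gave 1680 higher and 2500 lower. Probe sets near log2 4 (Rel, Klf2, Gadd45a) are limited by background.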
